A study of Homo sapiens with 2 samples.

Results

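The very wide ATF1 peaks are the 456 listed peaks at least 3 times as long as the table's median of 1551 bp, out of 15064 peaks from 1 chromatin immunoprecipitation (ChIP) library. They were chosen by their length alone and made up 3.03% of the peaks. The library came from HCT116 cells, a human colon carcinoma line, treated with 3xFlag-ATF1, ATF1 carrying an epitope tag, and the antibody was one to the tagged protein. An input DNA library without antibody from the same line completes the series of 2 samples; its reads per region were not used here, and neither library has a replicate. The sources used here do not say how the tagged protein was brought in or how its level compared with that of the cells' own ATF1.

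ATF1 belongs, with CREB1 and CREM, to the CREB group of leucine zipper proteins that regulate transcription. It binds as a dimer, with itself or with either relative, to the cAMP response element (CRE), and kinases of the cAMP and growth factor pathways phosphorylate it. A factor of this kind usually gives short peaks, because the sheared fragments all overlap 1 short site, whereas proteins and marks that cover a stretch of chromatin give long ones. Per the labels' protocols, the chromatin here was sheared to between 200 and 400 bp.

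In brief, these peaks carried many tags spread over a long stretch, with low fold enrichment, which peaks of 2 to 3 times the median length shared. Of the 456, 293 lay within 5 Mb of a chromosome end, where genes are dense, among them the peaks of PIM3, RHOT2, DVL1 and NRARP. Away from the ends, genes of developmental transcription factors and immediate early genes were found among them, such as DLX2, GATA2, OTX1, IER2, JUNB and EGR2. None of the 21 listed genes of the ATF and CREB family had one (exact binomial interval 0 to 16.1%). That interval includes the 3.03% of all listed peaks, and this was 1 of 6 gene lists with none, so the family is not set apart.

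The sequences below show what lay under the summit, the point of highest signal, where the summit fell in a promoter window of the RefSeq table (GRCh38.p14, the assembly of hg38, with 250 bases before and 50 after a gene start). This was so for 93 of the 456 very wide peaks, against 5239 of 14608 other peaks (20.4% and 35.9%). A full CRE, TGACGTCA on either strand, was in the window for 6 of the 93 (6.45%, exact 95% binomial interval 2.40 to 13.5%), against 266 of 5239 (5.08%, interval 4.50 to 5.71%). All promoter windows of the table held it in 1.85%. The first 260 bases of each of the 6 windows are given 5′ to 3′, up to 10 bases past the gene start, with the CRE in capitals.
DDX51: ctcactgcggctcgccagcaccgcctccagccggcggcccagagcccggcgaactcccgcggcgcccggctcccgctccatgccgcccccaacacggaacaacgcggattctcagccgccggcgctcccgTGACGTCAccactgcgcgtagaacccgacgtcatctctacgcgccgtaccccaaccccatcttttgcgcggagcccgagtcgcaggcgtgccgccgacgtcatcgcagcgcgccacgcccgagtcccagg
NAT14: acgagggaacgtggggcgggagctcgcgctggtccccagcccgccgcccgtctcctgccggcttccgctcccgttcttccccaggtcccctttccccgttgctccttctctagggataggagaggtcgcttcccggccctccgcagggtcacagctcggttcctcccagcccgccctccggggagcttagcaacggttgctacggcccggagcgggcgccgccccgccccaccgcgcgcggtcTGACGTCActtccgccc
GATA2-AS1: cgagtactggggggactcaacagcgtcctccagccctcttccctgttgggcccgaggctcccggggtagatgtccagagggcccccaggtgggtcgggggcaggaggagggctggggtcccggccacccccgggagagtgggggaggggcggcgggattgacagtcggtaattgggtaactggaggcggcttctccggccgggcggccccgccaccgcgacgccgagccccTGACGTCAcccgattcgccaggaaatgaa
DVL1: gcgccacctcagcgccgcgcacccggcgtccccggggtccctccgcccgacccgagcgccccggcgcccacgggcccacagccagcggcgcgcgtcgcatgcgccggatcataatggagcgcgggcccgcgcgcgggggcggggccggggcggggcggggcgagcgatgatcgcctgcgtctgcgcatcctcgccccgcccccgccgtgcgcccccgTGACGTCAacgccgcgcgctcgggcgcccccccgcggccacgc
VGF: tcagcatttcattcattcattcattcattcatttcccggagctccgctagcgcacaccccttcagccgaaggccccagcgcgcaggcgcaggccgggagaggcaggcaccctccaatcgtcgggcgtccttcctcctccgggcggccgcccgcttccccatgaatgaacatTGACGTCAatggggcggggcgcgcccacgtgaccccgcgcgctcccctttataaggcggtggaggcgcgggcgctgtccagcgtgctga
PAX6: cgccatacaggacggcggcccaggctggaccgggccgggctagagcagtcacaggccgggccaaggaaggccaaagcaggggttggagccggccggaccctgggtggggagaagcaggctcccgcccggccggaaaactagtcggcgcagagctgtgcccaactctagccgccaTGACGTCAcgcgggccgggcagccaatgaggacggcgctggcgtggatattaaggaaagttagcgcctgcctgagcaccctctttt

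The DDX51 window (chr12:132144310-132144569, minus strand) lies under a peak of 22.58-fold enrichment, with the summit at base 186 and the CRE starting at base 131. DDX51 encodes an RNA helicase of ribosome assembly, and the divergent neighbour NOC4L lies in the same peak. In the NAT14 window (chr19:55484938-55485197, plus strand), under 16.95-fold enrichment, the middle of the CRE was 7.5 bp from the summit. The window of GATA2-AS1 (chr3:128488953-128489212, plus strand), an antisense RNA of the GATA2 locus, lies under the peak assigned to GATA2 (12.06-fold), 1.5 bp between CRE and summit. The DVL1 window (chr1:1349409-1349668, minus strand) had 4.5 bp between them under 11.3-fold enrichment. VGF, a secreted neuropeptide precursor, had its CRE 46.5 bp from the summit (chr7:101165560-101165819, minus strand, 10.49-fold). The sixth, a start of the eye and brain regulator PAX6 (chr11:31817952-31818211, minus strand), had it 151.5 bp away under 3.37-fold enrichment, the lowest of the set. That peak is assigned not to PAX6 but to the antisense RNA DKFZp686K1684. Thus 4 of the 6 had the CRE within 50 bp of the summit.

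The pair of strongest very wide peaks whose window held only CRE half-sites, TGACG on either strand, are shown next, with the half-sites in capitals.
TBL3: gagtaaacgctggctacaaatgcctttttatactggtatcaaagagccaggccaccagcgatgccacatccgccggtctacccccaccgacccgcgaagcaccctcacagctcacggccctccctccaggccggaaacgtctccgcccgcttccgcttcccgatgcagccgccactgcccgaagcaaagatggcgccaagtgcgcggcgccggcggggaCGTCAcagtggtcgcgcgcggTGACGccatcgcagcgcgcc
TRMT61A: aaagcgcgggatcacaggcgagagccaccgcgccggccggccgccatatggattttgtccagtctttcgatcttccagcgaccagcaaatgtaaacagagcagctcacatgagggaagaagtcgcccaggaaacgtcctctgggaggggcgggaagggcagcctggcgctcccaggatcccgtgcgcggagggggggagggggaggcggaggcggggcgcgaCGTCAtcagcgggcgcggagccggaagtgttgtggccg
The TBL3 window (chr16:1971803-1972062, plus strand) holds half-sites at bases 220 and 241, on either side of the summit at base 227. TBL3 encodes a WD-repeat protein of ribosome assembly, and its peak of 23.45-fold was the strongest of all very wide ones. The TRMT61A window (chr14:103528946-103529205, plus strand) has 1 half-site, at base 223, and the summit at base 234. TRMT61A encodes a tRNA methyltransferase, and its peak had 22.92-fold enrichment. The longest peak of the table, at the kinase gene PIM3, had neither a full CRE nor a half-site in the window under its summit. Its window (chr22:49960522-49960781, plus strand) is given with GC boxes, GGGCGG on either strand, in capitals.
PIM3: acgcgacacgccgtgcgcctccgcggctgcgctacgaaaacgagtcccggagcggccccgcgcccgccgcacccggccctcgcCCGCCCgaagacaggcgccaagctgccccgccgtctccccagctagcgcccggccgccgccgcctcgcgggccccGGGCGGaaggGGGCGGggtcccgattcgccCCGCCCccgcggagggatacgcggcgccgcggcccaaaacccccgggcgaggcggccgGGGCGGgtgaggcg
The PIM3 window is 81.3% G and C over its 300 bases, with 5 GC boxes in the printed part and the summit at base 81.

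Among the 93 very wide peaks with the summit in a window, 44 had at least a half-site (47.3%, interval 36.9 to 57.9%), against 2317 of 5239 other peaks (44.2%, interval 42.9 to 45.6%). These intervals overlap. Very wide peaks with a half-site had a median of 8.32-fold enrichment (interval of the median 7.23 to 9.31), against 6.35-fold without (5.75 to 8.05). Among other peaks the medians were 11.15-fold with a half-site and 7.11-fold without. Fold enrichment belongs to the same peak calls as length, so these medians are a description.

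**Figure D1:**
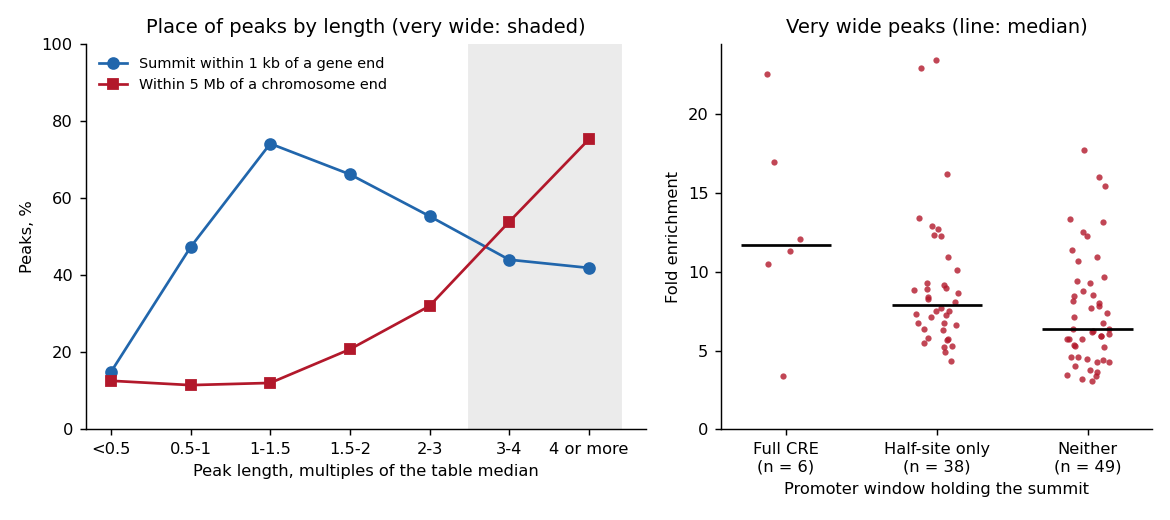
Left, the percentage of peaks with the summit within 1 kb of a protein-coding gene end (circles) and the percentage within 5 Mb of a chromosome end (squares), by peak length in multiples of the table median, with the very wide classes shaded. Right, fold enrichment of each very wide peak whose summit lies in a promoter window, by the CRE content of that window. Medians were 11.68 for full CREs (6 peaks, interval 3.37 to 22.58) and 6.35 for neither (49 peaks, interval 5.75 to 8.05), with overlapping intervals.

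Length, tags and fold enrichment come from 1 set of peak calls, so they describe the peaks and test nothing. The very wide peaks ranged from 4656 to 28187 bp, with a median of 6133 bp and quartiles of 5197 and 8391 bp. They held a median of 597 tags (interval 563 to 643, range 206 to 3300), against 154 tags (150 to 158, range 16 to 1544) in the other peaks. Per kb of peak the median was 80.3 tags in very wide peaks and 89.0 tags in the others, but the order depended on position. Within 5 Mb of a chromosome end very wide peaks had more tags per kb than other peaks, 77.9 (interval 73.6 to 82.9) against 62.0 (59.8 to 64.3). Farther away they had 87.5 (76.7 to 96.9), against 94.8 (92.5 to 97.1), with overlapping intervals. In total they held 9.97% of the tags and 12.6% of the bases in the table.

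Fold enrichment, a deposited ratio whose denominator is unstated, had a median of 4.74 in very wide peaks (interval 4.51 to 5.08), against 7.03 in the others (6.97 to 7.10). It was under 4 in 139 of the 456 (30.5%), against 1249 of 14608 (8.55%), and reached 23.45 at most, against 121.03. The authors' score had a median of 294 in very wide peaks and 149 in the others, and 57 very wide peaks (12.5%) scored under 100, against 35.8% of other peaks. PIM3 was one of the 57, with 3300 tags and a score of 71.35, and PKD1, whose product is a membrane protein of the kidney tubule, another with 1861 tags and 70.07. HES4 and IER2, which are far shorter at 5991 and 5525 bp, each had a score of 3100.

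**Figure D2:**
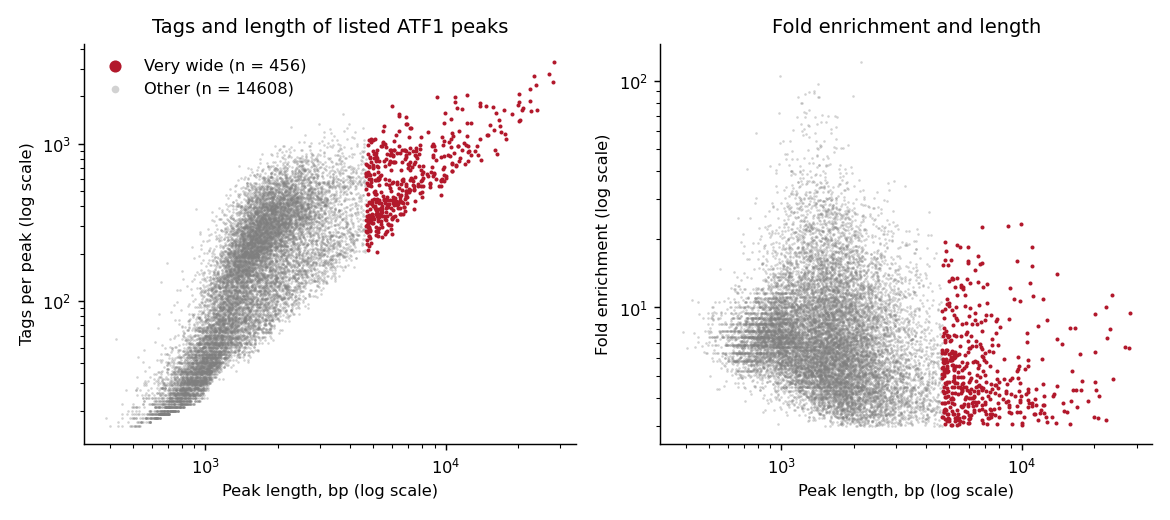
Tags per peak (left) and fold enrichment (right) against peak length, all on log scales, for the 456 very wide and the 14608 other peaks of the 1 library. Very wide peaks hold 206 tags or more, and their fold enrichment ends at 23.45 while that of shorter peaks reaches 121.03.

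The peaks on either side of the threshold overlapped in these values. The shortest very wide peaks were at TAPBP, an antigen presentation gene (4656 bp, 298 tags, 6.27-fold), at AP5B1 (4660 bp, 743 tags, 3.3-fold) and at CAND1.11 (4660 bp, 627 tags, 4.89-fold). The longest peak left out was at NOTUM, which encodes a secreted WNT inhibitor (4653 bp, 618 tags, 4.4-fold), followed by LINC00304 (4647 bp, 324 tags, 3.4-fold). The 828 peaks of 2 to 3 times the median length had a median of 5.10-fold enrichment and 362.5 tags.

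Summits of very wide peaks were often far from the middle. The summit lay a median of 23.7% of the peak's length from the middle (interval 20.3 to 26.9%), against 9.53% (9.33 to 9.75%) in other peaks. This was not particular to very wide peaks. In peaks of 2 to 3 times the median length the distance was 21.7% (19.6 to 22.8%), an overlapping interval. In 59 of 456 very wide peaks (12.9%) the summit was in the outermost 10% at either side, against 10 of 14608 (0.0685%). For peaks of 2 to 3 times the median length it was 9 of 828 (1.09%). The long peaks at DVL1, PIGQ, FBRSL1 and NRARP were of this kind. Counted from the lower coordinate, the summit was at 96.9% of the 23700 bp peak at DVL1 and at 8.48% of the 22316 bp peak at NRARP.

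The 10 longest peaks lay at most 2.09 Mb from a chromosome end. PIM3, a serine/threonine kinase of growth and survival, had a peak of 28187 bp (chromosome 22, 49945809 to 49973995) with 3300 tags (exact 95% Poisson interval 3188 to 3415) and 9.44-fold enrichment, which covered the whole gene. PIGQ, of glycosylphosphatidylinositol anchor synthesis, had 27980 bp, 2479 tags and 6.63-fold (chromosome 16, 542877 to 570856). PLEC, which encodes the cytoskeletal linker plectin, had 26948 bp, 2786 tags and 6.7-fold, all inside the gene. The others were at LOC107984906 (4.81-fold), DVL1 (11.3-fold), RHOT2 (8.05-fold), FBRSL1 (7.34-fold), PKD1 (3.19-fold), NRARP (10.09-fold) and ABCA2 (4.05-fold). RHOT2 encodes a GTPase of the mitochondrial outer membrane, and its peak (chromosome 16, 665114 to 688443) touched 6 protein-coding genes and held 10 of their ends, the most of any. The 5 with most tags were PIM3, PLEC, RHOT2, PIGQ and DVL1, all among the longest.

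Very wide peaks lay near chromosome ends far more often than other peaks. The end was taken as the first base of the chromosome or the end of its last annotated gene. Of very wide peaks, 64.3% (293 of 456, interval 59.7 to 68.7%) were within 5 Mb of it, against 13.9% of other peaks (2025 of 14608, interval 13.3 to 14.4%). Within 1 Mb the shares were 19.3% and 3.35%. Of the listed peaks within 5 Mb of an end 12.6% were very wide (293 of 2318), against 1.28% of those farther away (163 of 12746). The distance was looked at after the table had been opened.

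Beyond 2 Mb the share was lower at each greater distance. It was 15.3% in the first Mb, 20.1% from 1 to 2 Mb, 7.55% from 2 to 5 Mb, 2.33% from 5 to 10 Mb, 1.62% from 10 to 20 Mb and 1.03% beyond. The intervals of the first pair overlap (12.4 to 18.4% and 16.9 to 23.5%). It was higher within 5 Mb of an end than farther away on 21 of 23 chromosomes. The exceptions were chromosomes 6 and 15, with no very wide peak among 104 and 35 listed peaks near the ends, with exact intervals that reach 3.48% and 10.0%. Chromosome 11 had 24 of 103 near its ends (23.3%), against 15 of 749 farther away, and chromosome 4 had 14 of 86 (16.3%), against 1 of 478 (0.209%). Chromosomes 19 and 16 had the most very wide peaks, 64 of 1035 (6.18%) and 51 of 683 (7.47%), and chromosomes 6 and X the lowest shares, 0.484% and 0.510%. Copy number of these regions in HCT116, and reads of the input there, were not tested.

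**Figure D3:**
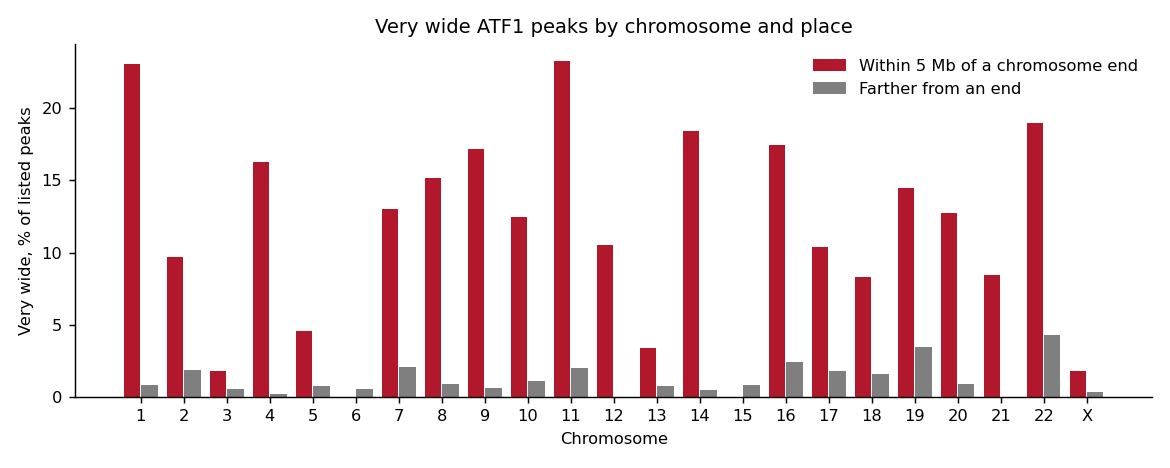
Very wide peaks as a percentage of the listed peaks of each chromosome, within 5 Mb of a chromosome end and farther from an end. The bars near the ends are the taller ones on all chromosomes but 6 and 15.

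Very wide peaks also lay where protein-coding genes are dense. The surrounding 1 Mb held a median of 23 protein-coding genes (interval 21 to 27), against 11 (11 to 12) around other peaks. Among all listed peaks the median was 21 genes in the first Mb from an end and 10 genes beyond 20 Mb, and the share of very wide peaks was therefore taken in bands of density. With 30 or more genes it was 21.0% near the ends (129 of 615), against 2.94% farther away (48 of 1631). With 10 to 19 genes it was 11.9% (83 of 698), against 0.861% (33 of 3834), and with fewer than 10 genes 2.92% (17 of 582), against 0.890% (50 of 5619). In each of the bands the intervals near and far from the ends were apart.

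**Figure D4:**
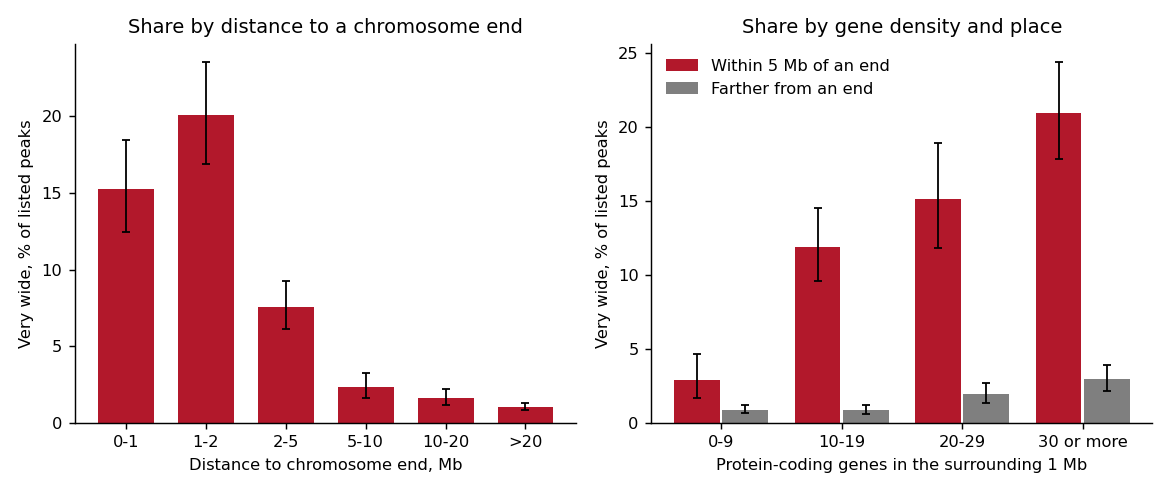
Left, very wide peaks as a percentage of listed peaks by distance to the chromosome end, highest at 20.1% from 1 to 2 Mb. Right, the same percentage by the number of protein-coding genes in the surrounding 1 Mb, within 5 Mb of an end and farther from an end; error bars are exact 95% binomial intervals over peaks.

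Many very wide peaks were neighbours. In 108 cases the next very wide peak began within 50 kb, and 173 of the 456 stood in 65 runs of at least 2. Runs were not counted among other peaks, so whether this is particular to very wide peaks was not tested. The longest run, on chromosome 16 (632011 to 767703), had 7 peaks, at C16orf13, LOC105371038, WDR90, RHOT2, FBXL16, METRN and MSLN, which covered 48.8% of it. On chromosome 19 (1232074 to 1297913) 6 peaks, at ATP5D, MIDN, LOC107985303, CIRBP-AS1, C19orf24 and EFNA2, covered 81.4% of 65840 bp. A run of 5 on chromosome 1 (958557 to 1071059) took in HES4 and AGRN, the gene of the synapse-organising protein agrin. Another listed peak lay within 500 bp of 35 very wide peaks (7.68%), against 109 of 14608 others (0.746%), so that in those cases the called intervals are close to 1 longer one.

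The part near chromosome ends differed from the rest of the very wide peaks in length and strength, and other peaks differed in the same directions. The 293 near the ends had a median length of 6717 bp (interval 6333 to 7068), against 5507 bp (5259 to 5920) for the 163 farther away. Their median fold enrichment was 4.46 (4.26 to 4.71), against 5.43 (5.08 to 6.02). Their summits were within 1 kb of a protein-coding gene end in 38.9% (33.3 to 44.8%), against 50.3% (42.4 to 58.2%). Among other peaks this share was 42.2% near the ends and 58.8% farther away, so it was lower near the ends in both kinds of peak.

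Relative to genes, very wide peaks had fewer summits at gene ends than other peaks. A protein-coding gene began or ended within 1 kb of the summit in 43.0% (196 of 456, interval 38.4 to 47.7%), against 56.5% (8250 of 14608, interval 55.7 to 57.3%). Taken apart by distance to a chromosome end, as given above, the intervals of very wide and other peaks overlapped both near the ends and farther away. The share was not steady over length: it was 14.9% below 0.5 times the median length, 74.1% from 1 to 1.5 times, and 44.0% and 41.9% in the very wide classes of 3 to 4 and of 4 or more times. Peaks more than 10 kb from any such end were also fewer, 11.6% against 21.0%. By the authors' classes 38.6% were intronic, 34.9% exonic, 22.6% upstream and 3.95% downstream, against 33.7%, 43.8%, 19.8% and 2.66% of the other peaks. Within 5 Mb of a chromosome end the classes were close, with 40.6% intronic and 32.4% exonic, against 41.4% and 33.2% of other peaks there. A long interval can reach a gene end that its summit misses: 30.5% held 2 or more gene ends, against 9.63% of other peaks, and 30.3% held none, against 44.2%.

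For 322 of the very wide peaks and 10738 others, the strand of the assigned gene could be taken from the promoter table. The summit was within 1 kb of the gene's 5′ end in 34.2% (110 of 322), against 57.0%, and within 1 kb of its 3′ end in 11.5% (37 of 322), against 5.34%. It was inside the gene and over 1 kb from both ends in 52.2%, against 36.4%. Within 5 Mb of a chromosome end the 3′ shares were 9.50% and 9.58%, and the 5′ shares 34.5% (interval 27.9 to 41.5%), against 42.5% (39.9 to 45.1%). Farther away the 3′ shares were 14.8% (interval 8.98 to 22.3%), against 4.71% (4.29 to 5.16%). The 5′ shares there were 33.6% (25.3 to 42.7%), against 59.1% (58.1 to 60.1%). The assigned genes were short, with a median of 13003 bp, against 28650 bp. For peaks of 2 to 3 times the median length the median was close, at 14265 bp. Within 5 Mb of a chromosome end it was 12312 bp for very wide and 17815 bp for other peaks. A very wide peak covered a median of 37.7% of its gene, and the whole gene in 76 cases (16.7%), against 1.56% of other peaks. Coverage depends in part on peak length, by which these peaks were chosen. TBL3, JUNB, TH and DVL1 were among those covered whole.

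Stronger and weaker very wide peaks differed in where they lay. The 112 with at least the table's median fold enrichment of 6.97 had summits within 1 kb of a gene end in 66.1% (74 of 112, interval 56.5 to 74.7%), against 35.5% (122 of 344, interval 30.4 to 40.8%) of the 344 below it. They were upstream in 40.2%, against 16.9%, and at the gene's 5′ end, where strand was known, in 65.5% (55 of 84), against 23.1% (55 of 238). The weaker ones were inside the gene, over 1 kb from both ends, in 62.2%, against 23.8%. Median tags per kb were 132 and 72.6. The same split was not made among other peaks.

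The 5 strongest by fold enrichment were at TBL3, TRMT61A, DDX51, SCRT1 and CYHR1. SCRT1, a neural zinc finger repressor, had 4774 bp, 712 tags and 19.49-fold enrichment, and CYHR1 5354 bp, 371 tags and 18.88-fold. The weakest were VWA1 (3.03-fold, 400 tags), the lymphocyte surface gene CD7 (3.04-fold, 420 tags) and CFAP46 (3.04-fold, 604 tags). All 8 were at most 3.35 Mb from a chromosome end. Of the very wide peaks over 10 kb from a protein-coding gene end, the strongest were at LOC105371910 (13.34-fold), TGIF1 (13.15-fold) and DLEU1 (10.41-fold). TGIF1 encodes a homeodomain repressor of TGF-beta signalling, and its summit lay inside the gene, 11678 bp from its nearer outer end. That summit nevertheless fell in a promoter window of the RefSeq table, so distance from the outer ends does not place it away from gene starts.

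The promoter windows of genes assigned to very wide peaks were rich in G and C. The 482 windows of these 322 genes had a median of 69.0% G and C, against 64.0% for the 15634 windows of genes assigned to other peaks. A full CRE was in 1.45% of them (7 of 482, interval 0.586 to 2.97%), against 2.58% (2.33 to 2.84%), and in 1.85% of all windows of the table. A half-site was in 33.2%, against 29.7%. The ETS site CCGGAAGT was in 4.36% (2.72 to 6.58%), against 5.64% (5.28 to 6.01%), and the NRF1 site in 2.28% (1.14 to 4.05%), against 1.65% (1.46 to 1.86%). The intervals of each of these 4 motif pairs overlap.

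An assigned gene's window need not lie in the peak, so windows inside the peaks were also taken. There were 363 different windows of 290 genes, in 222 of the 456 peaks. Their median was 69.0% G and C (interval 67.7 to 70.0%), against 66.7% (66.3 to 67.0%) of 11616 windows inside other peaks. Within 5 Mb of a chromosome end the median inside very wide peaks was 70.3% (69.0 to 72.3%). Farther away it was 67.7% (66.0 to 69.0%), which overlaps the interval of other peaks. Windows inside other peaks were not split in this way. All 34683 windows had 58.7%. Windows inside peaks of 2 to 3 times the median length had 69.7% (68.7 to 70.7%), which overlaps the interval of very wide peaks. The observed to expected ratio of CpG was 0.807 inside very wide peaks, against 0.855 inside other peaks and 0.579 in all. CRE half-sites were in 33.3% (interval 28.5 to 38.4%), against 36.7% (35.8 to 37.6%) and 24.5% in all. Full CREs, which contain half-sites on both strands, were in 2.75% (1.33 to 5.01%), against 3.51% and 1.85% in all, an interval that holds both other values. The full CRE share of very wide peaks thus lay below that of all windows by assigned gene and above it inside the peaks, within the intervals.

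Each motif was searched on both strands. The ETS site was in 3.58% of windows inside very wide peaks (13 of 363, interval 1.92 to 6.05%), against 8.63% inside other peaks (interval 8.12 to 9.15%) and 4.13% in all. All 13 were within 5 Mb of a chromosome end (13 of 214, 6.07%, interval 3.27 to 10.2%), with none of 149 farther away (interval 0 to 2.45%). The NRF1 site was in 0.826% (3 of 363, interval 0.171 to 2.40%), against 2.39% (2.12 to 2.69%) and 1.23% in all, with overlapping intervals and the opposite order to that by assigned gene. GC boxes were in 73.3%, against 75.4% and 45.0% in all, CCAAT boxes in 29.5%, against 34.0% and 34.6%, and the E-box CACGTG in 9.37%, against 9.93% and 7.22%. The AP-1 site TGANTCA was in 5.23%, against 3.51% and 7.70%, and TATAAA in 5.23%, against 4.09% and 11.6%. In peaks of 2 to 3 times the median length the ETS site was in 2.65% of windows. A match is only these letters in the window.

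**Figure D5:**
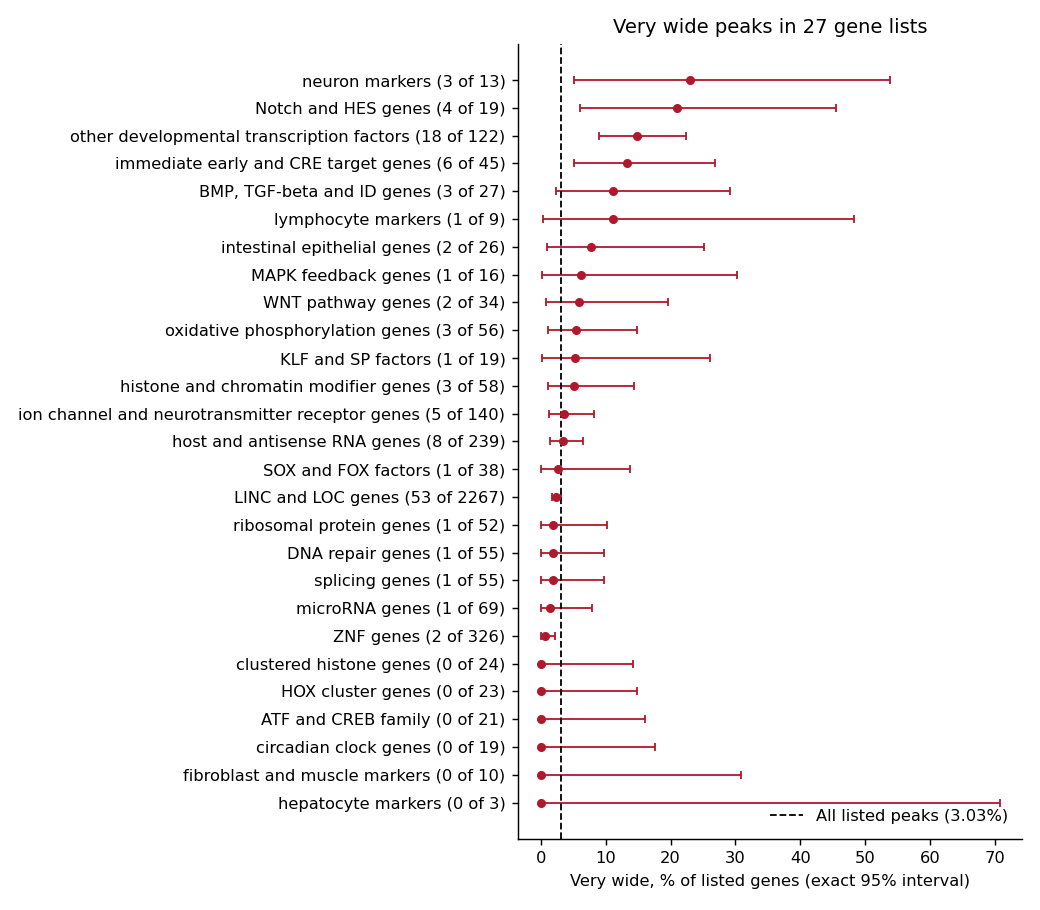
Share of the genes of each list that had a very wide peak, among its genes in the peak table, with exact 95% binomial intervals and the share over all listed peaks (3.03%, dashed). Developmental transcription factors (18 of 122) and immediate early genes (6 of 45) lie to its right with their intervals. So do Notch and HES genes (4 of 19) and neuron markers (3 of 13), and 6 lists have none.

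Of 27 gene lists, 14 had a larger share of very wide peaks than the 3.03% of all listed peaks, 8 at least 2 times as large, and 6 had none. The lists and the very wide peaks were set with results of these data known, and no set test was made. In all, 117 of the 456 were in some list.

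Developmental transcription factors were well represented. Of 122 genes of the homeobox, PAX, T-box, GATA and ZIC families in the table, 18 had a very wide peak (14.8%, interval 8.98 to 22.3%). Of these, 15 were factor genes and 3 antisense RNAs beside them (NKX2-1-AS1, MNX1-AS2 and DKFZp686K1684). Most lay away from chromosome ends: farther than 5 Mb from an end, 15 of 115 were very wide (13.0%), against 1.28% of all listed peaks there. DLX2, a forebrain homeobox factor, had 12.3-fold enrichment and 779 tags over 5259 bp (chromosome 2, 172098433 to 172103691), with its summit just upstream of the gene. GATA2, a regulator of blood stem cells, had 12.06-fold and 950 tags over 5668 bp. OTX1, of forebrain and sense organs, had 9.26-fold and 852 tags over 7415 bp, and ONECUT2, a liver and pancreas factor, 9-fold and 543 tags over 4732 bp. The weakest were GATA5 (3.22-fold), HMX3 (3.26-fold) and the antisense RNAs MNX1-AS2 (3.07-fold) and DKFZp686K1684 (3.37-fold). HOX cluster genes had none of 23 (interval 0 to 14.8%), although the peak of HOXB-AS3, a noncoding RNA of the cluster (7011 bp, 6.27-fold), touched HOXB5 and HOXB6. SOX and FOX factors had 1 of 38, SOX18 (3.38-fold), a factor of blood and lymph vessels. This depended on the length threshold: at 2 times the median length, which 8.52% of all peaks reached, 36.8% of SOX and FOX genes were included (interval 21.8 to 54.0%) and 32.8% of the developmental factors (24.6 to 41.9%). At 4 times, which 1.47% of all peaks reached, the shares were 2.63% and 4.92%.

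Immediate early genes and CRE targets had a very wide peak at 6 of 45 (13.3%, interval 5.05 to 26.8%), and farther than 5 Mb from an end at 4 of 40 (10.0%). IER2, an early response regulator, had 18.53-fold enrichment and 1300 tags over 5525 bp (chromosome 19, 13149300 to 13154824). JUNB, an AP-1 subunit, had 9.44-fold and 1494 tags over 6381 bp, GADD45B, a stress sensor, 8.55-fold and 761 tags, EGR2, a zinc finger factor, 8.09-fold and 661 tags, and its relative EGR3 6.13-fold and 853 tags. PIM3 is the sixth. Their tags per kb were between 117 (PIM3) and 235 (IER2), all above the very wide median of 80.3. The median length over all 45 genes was 2742 bp, against 1551 bp in the table.

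Genes of other signalling pathways had between 1 and 4 very wide peaks a list, apart from the clock and ATF and CREB lists. Notch and HES genes had 4 of 19 (21.1%, interval 6.05 to 45.6%): HES4 (18.47-fold, 1733 tags) and HES1 (7.14-fold, 856 tags), repressors downstream of the receptor, and the ligands DLL4 (6.77-fold, 766 tags) and JAG2 (3.85-fold, 1545 tags over 18779 bp). NRARP, a target and inhibitor of Notch signalling outside the list, was among the 10 longest. Of these 4, DLL4 was the one farther than 5 Mb from an end. WNT pathway genes had 2 of 34 (5.88%, interval 0.720 to 19.7%), DVL1, which relays the signal from the receptor, and the receptor FZD5 (6.4-fold, 589 tags). BMP, TGF-beta and ID genes had 3 of 27 (11.1%, interval 2.35 to 29.2%), TGIF1 (13.15-fold), the BMP inhibitor NOG (3.84-fold) and the SMAD corepressor SKI (3.43-fold). MAPK feedback genes had 1 of 16 (6.25%, interval 0.158 to 30.2%), the phosphatase DUSP4 (6.64-fold, 834 tags). The WNT, BMP and MAPK intervals include the 3.03% of all listed peaks. Circadian clock genes had none of 19 (interval 0 to 17.6%), and the ATF and CREB family none of 21 (interval 0 to 16.1%), with a median length of 1894 bp in that family.

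Chromatin and zinc finger genes varied by list. Of histone and chromatin modifiers 3 of 58 had one (5.17%), among them KMT2B, a histone H3 methyltransferase (17.76-fold, 824 tags over 4833 bp), and BRD3, an acetyl-lysine reader (5.75-fold, 276 tags). KLF and SP factors had 1 of 19 (5.26%), KLF16 (9.31-fold). At 2 times the median length the share of KLF and SP factors was 36.8% (interval 16.3 to 61.6%) and that of the modifiers had an interval of 9.87 to 31.4%, against 8.52% of all peaks. ZNF genes, the largest family of zinc finger factors, had 2 of 326 (0.613%, interval 0.0744 to 2.20%), ZNF703 (6.23-fold) and ZNF598 (4.19-fold), with that interval below 3.03%. Clustered histone genes had none of 24, with a median length of 1250 bp.

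Among genes of basic cell functions 3 lists were below the 3.03% of the table and 1 above it, all with intervals that include it. Ribosomal protein genes had 1 of 52, RPL36 (5.25-fold), splicing genes 1 of 55, SF3A2 (3.41-fold over 11873 bp), and DNA repair genes 1 of 55, XRCC3 (4.21-fold). Oxidative phosphorylation genes had 3 of 56 (5.36%, interval 1.12 to 14.9%), all on chromosome 19: ATP5D, an ATP synthase subunit (18.58-fold, 1970 tags over 10967 bp), and the complex I subunits NDUFA13 (4.24-fold) and NDUFA11 (3.55-fold).

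Genes of the gut epithelium had 2 of 26 (7.69%), with an interval of 0.946 to 25.1% that includes the 3.03% of all listed peaks. They were ASCL2, a WNT-driven factor of intestinal stem cells (7.49-fold, 594 tags), and the mucin gene MUC2 (6.85-fold, 494 tags). Both were within 5 Mb of an end, and none of the 23 genes farther away had one. Among markers of other cell types, neuron markers had 3 of 13 (23.1%, interval 5.04 to 53.8%): TUBB3, a neuronal tubulin (13.38-fold, 913 tags), RBFOX3, a neuronal splicing factor (4.95-fold, 348 tags), and TH, of catecholamine synthesis (3.87-fold, 912 tags over 16011 bp). All 3 listed neuron markers within 5 Mb of a chromosome end were very wide and none of the 10 farther away. The lymphocyte markers had 1 of 9 (interval 0.281 to 48.2%), CD7, also near an end, and the hepatocyte and the fibroblast and muscle markers none of 3 and none of 10. Ion channel and receptor genes had 5 of 140 (3.57%), 4 of them near the ends, with GRINA (8.46-fold), KCNT1 (5.8-fold), GABRD (5.66-fold) and KCNH2 (5.35-fold) the strongest. ATF1 binding in the table was measured on DNA, and RNA of these genes was not measured.

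The shares of noncoding RNA names had intervals that include 3.03%. LINC and LOC genes had 53 of 2267 (2.34%, interval 1.76 to 3.05%), of which 44 were within 5 Mb of an end. The strongest were LOC105372238 (15.66-fold, 1476 tags), LOC105378949 (13.44-fold), LOC105371910 (13.34-fold) and LOC105372240 (12.27-fold). The summits lay 400 bp from an end of CSNK1G2, 59 bp from GNB1 and 110 bp from OAZ1 for LOC105372238, LOC105378949 and LOC105372240, and 10138 bp from TMEM235 for LOC105371910. Host and antisense RNA genes had 8 of 239 (3.35%). NRSN2-AS1 (16.24-fold, 1075 tags) lay 170 bp from the end of SOX12, CCND2-AS1 had 10.5-fold and 1250 tags, and CIRBP-AS1 had 8.49-fold, 131 bp from the end of CIRBP, a cold-induced RNA-binding protein. Of 69 microRNA genes 1 had a very wide peak, MIR4530 (15.41-fold, 731 tags), whose summit lay 212 bp from an end of ZFP36, an immediate early RNA-decay factor. The table names 1 gene per peak, so a very wide peak at a pair of genes counts for 1 of them.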

How the data were processed

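The labels' protocols and the deposited peak table of the ATF1 ChIP library were used. The submitters' processing notes name hg38 as build, with bedtools, Bowtie2 and CASAVA as tools; the peak caller and its control are not given. The deposited tags are raw counts per peak, the fold enrichment is a deposited ratio with an unstated denominator, and what the deposited score is computed from is not stated. Peak positions, lengths and assigned genes are the authors' own. The very wide peaks and gene lists were chosen with earlier results of these data known. Another 1 line without a position was left out.

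RefSeq's gene table (GRCh38.p14) gave the gene ends, and sequences from its promoter table (34961 windows of 27195 genes). Of the 456 assigned gene names 414 matched a current symbol, 21 an older one and 21 neither; 322 had a window. Shares carry exact (Clopper-Pearson) 95% intervals, medians exact binomial ones and single tag counts exact Poisson ones. They cover counting error only, and neighbouring peaks are not independent. A single library allows no test. The library's total depth is unknown. Genes named were the 10 longest, 5 with most tags, 5 with highest and 3 with lowest fold enrichment, 3 at either side of the threshold, up to 4 strongest of each list, 3 with most gene ends and 3 strongest over 10 kb from a gene end; some are not reported here. EGR2, EGR3, GATA5, HMX3, CSNK1G2, GNB1, OAZ1, TMEM235, SOX12, VGF, PAX6, NAT14, NOC4L, HOXB5, MIDN and the genes of runs were named after their values were seen. Measures were tested on simulated data. Values were computed with scipy 1.17.1, pandas 2.3.3 and numpy 2.4.6 under Python 3.11.15.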

Additional observations from a re-analysis of the deposited data

How the results depend on the processing

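Of 163 values under other settings, 111 stayed within the interval of the reported value and 52 did not; 32 of those were shares of single gene lists. The gene-end share (43.0%) was 50.9% for the 1284 peaks of at least 2 times the median length and 66.1% for the 112 of at least median fold enrichment. It was 31.6% with a 500 bp window, 79.4% with 5 kb, 76.3% for any overlap of the peak with the window and 51.5% with ends of all annotated genes. Among the 112, exonic, intronic and upstream shares were 30.4%, 25.9% and 40.2%. Median tags were 804, 435 and 894.5 for peaks of at least 4 times the median length, for those of at least 2 times and for the 112. Median tags per kb were 89.1 with 2 times and 132 for the 112, and median fold enrichment 4.435 with 4 times and 9.86 for the 112. The share near a chromosome end (64.3%) was 75.2% for the 222 peaks of at least 4 times the median length, 43.5% with 2 times, 45.2% within 2 Mb and 71.3% within 10 Mb; the distance and its alternatives were chosen after seeing the data. Without chromosomes 16 and 19 it was 63.3%, against 12.4% of other peaks. Lists at 2 or more times the share of the table numbered between 8 and 11 in these settings. For all of these the cause was not tested. No paired analysis was possible because each group has 1 sample. The library's depth is unknown, so no limit from it can be given.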
